A study of Homo sapiens with 9 samples.

Results

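Collagen chain genes were examined in OVCAR4, an established human line of high-grade serous ovarian carcinoma cells, with and without knockdown of MPZL3, a predicted cell adhesion molecule. A member was any gene of the count table annotated as protein-coding whose symbol was COL, a number, A and a number, which gave 44 of 58735 genes and 44 of 19951 protein-coding genes. RNA-seq was made from 3 libraries of cells carrying a scramble shRNA (scr control), 3 with shRNA #1 against MPZL3 (shMPZL3 #1) and 3 with shRNA #2 (shMPZL3 #2), which the study describes as 3 biological replicates of each condition. All 9 cultures were transduced with lentivirus and kept in puromycin for 3 days, so the controls carried vector and drug too, and each condition is a pool of transduced cells of a single line in culture. The comparison asks how lower MPZL3 goes with the mRNA of each chain.

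Collagens are secreted proteins in which 3 chains wind into a helix, and the helix needs glycine as the first residue of each Gly-X-Y triplet. Type IV collagen builds the network of basement membranes, the sheet beneath epithelia that carcinoma cells must cross. Fibrillar collagens form the fibres of stroma, beaded-filament and short-chain collagens form microfibrils and lattices around cells, collagens of the FACIT class decorate fibrils, multiplexins lie in basement membrane zones, and transmembrane collagens sit in the plasma membrane. Epithelial cells are known as makers of basement membrane chains, and fibroblasts as the main source of fibrillar chains.

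The repeat itself shows how the classes differ. In the coding sequences of GENCODE release 29, the 11 fibrillar chains held a longest unbroken run of 216 to 343 Gly-X-Y triplets, with 2 or 3 runs of at least 5 triplets. The 6 type IV chains held a longest run of 38 to 66 triplets, in 22 to 27 runs, since their helix is interrupted many times. A stretch inside the long run of COL1A1 (coding bases 544 to 588 of COL1A1-201, a gene on the minus strand of chromosome 17) and a stretch of COL4A1 across an interruption (coding bases 1810 to 1863 of COL4A1-201, minus strand of chromosome 13) are shown, with the glycine codon of each triplet in capitals.
COL1A1: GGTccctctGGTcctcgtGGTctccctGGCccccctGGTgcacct
COL4A1: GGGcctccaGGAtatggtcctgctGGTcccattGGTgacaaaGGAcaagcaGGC
In the COL4A1 stretch, 2 codons stand between the end of a run and the start of the next.

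The type IV chains are also encoded in head-to-head pairs. COL4A1 and COL4A2 point away from each other on chromosome 13, with RefSeq start sites 127 bases apart in GRCh38.p14, and COL4A3 and COL4A4 do so on chromosome 2, with start sites 419 bases apart. The bases between the start sites of the first pair (chr13:110307158-110307283, plus strand), and the 250 bases before the start of COL4A3, which lie between the start sites of the other pair (chr2:227164374-227164623, plus strand), are shown because the members of each pair are compared below. Capitals mark matches on either strand to the GC box GGGCGG and to CCAAT, and no match overlapped another.
COL4A1 and COL4A2: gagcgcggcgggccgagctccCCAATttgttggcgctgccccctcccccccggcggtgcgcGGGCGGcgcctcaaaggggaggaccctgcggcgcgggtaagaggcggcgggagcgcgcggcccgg
COL4A3: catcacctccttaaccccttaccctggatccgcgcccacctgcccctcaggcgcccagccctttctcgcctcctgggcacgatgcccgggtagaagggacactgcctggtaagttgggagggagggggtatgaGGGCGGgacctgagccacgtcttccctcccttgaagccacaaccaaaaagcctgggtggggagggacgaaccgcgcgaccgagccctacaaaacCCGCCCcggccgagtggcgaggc
The first stretch held 1 match to the GC box and 1 to CCAAT, the second held 2 to the GC box, and neither held TATAAA. Over all 35116 RefSeq windows of 250 bases before to 50 bases after a start, 45.0% held GGGCGG, 34.6% CCAAT and 11.5% TATAAA. Of the 30 windows found for 22 of the tested members, 21 held GGGCGG, 7 CCAAT and 4 TATAAA. The RefSeq table held windows for 32 of the 44 members.

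Reads on the 44 genes made up 0.294% to 0.534% of the 15040102 to 27835841 counts per library. MPZL3 itself was lower in each of the 6 knockdown libraries. It had 536, 611 and 587 normalized counts (counts scaled to a common library size) in scr control, 119, 143 and 123 under shMPZL3 #1, and 284, 380.4 and 271 under shMPZL3 #2, a log2 fold change of -2.17 under shMPZL3 #1 and -0.89 under shMPZL3 #2. Every gene was tested with edgeR's quasi-likelihood test, two-sided, over the 16928 genes with enough counts, and was called at a Benjamini-Hochberg adjusted p under 0.05. RNA of bulk cultures was measured, so fewer cells that make a transcript and less of it per cell cannot be told apart.

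Of the 44 members, 28 had enough counts to be tested, 12 reached 1 RPKM (CPM, the counts scaled by library size, divided by the exonic length in kilobases) on average in scr control, and 2, COL6A5 and COL19A1, had no read in any library. Type IV chains led the levels. In scr control COL4A1 stood at 69.0 ± 11.3 RPKM and COL4A2 at 68.3 ± 9.47 RPKM (SD, n = 3 each). COL18A1, the multiplexin whose C-terminal fragment is endostatin, followed at 56.8 ± 3.19 RPKM, and its 3 libraries lay within the range of the COL4A1 libraries except for the lowest, at 53.2 RPKM. The next level was shared by COL9A2, a chain of the cartilage FACIT type IX, at 22.4 ± 1.48 RPKM, by COL12A1, a FACIT chain of dense connective tissue, at 19.2 ± 1.72 RPKM, and by COL26A1 at 18.7 ± 2.38 RPKM, where COL26A1 overlapped each of the others and COL9A2 lay above COL12A1 in all 3 controls.

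Below these stood the short-chain collagen COL8A1 at 5.42 ± 1.02 RPKM, the type VI chains COL6A1 at 4.58 ± 0.717 and COL6A2 at 3.60 ± 0.387 RPKM, the transmembrane collagen COL23A1 at 2.33 ± 0.479 RPKM, COL4A4 at 2.12 ± 0.678 RPKM and COL1A1 at 1.32 ± 0.146 RPKM. Each overlapped the next in this order over the 3 controls, except that COL6A2 lay above COL23A1 in all of them. RPKM divides by all annotated exons of a gene, so a gene with long, rarely used exons reads low on this scale. Type IV chains took 49.8% ± 3.13 of the summed RPKM of the family in scr control, multiplexins 20.4% ± 0.985, the FACIT class 15.3% ± 0.768, and the fibrillar class 1.504% ± 0.177 (SD, n = 3 each).

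**Figure D1:**
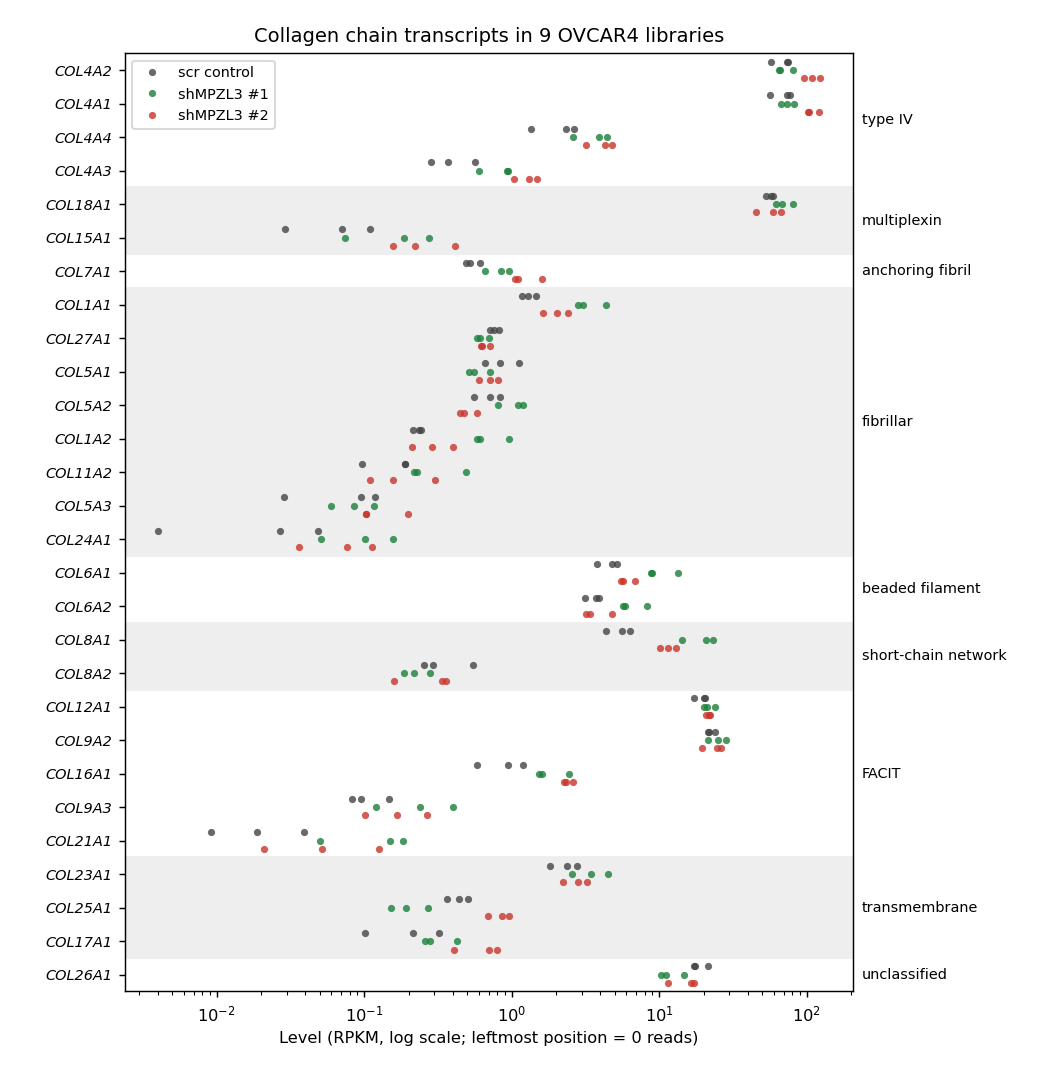
Level of each of the 28 tested collagen chain genes in the 9 libraries, in RPKM on a log axis, with a point per library and genes grouped by class. COL4A1, COL4A2 and COL18A1 lie above 45 RPKM in every library, and most fibrillar chains lie below or near 1 RPKM.

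The family as a whole took more reads under shMPZL3 #2, and the classes with the larger rises in mean differed between the shRNAs. Reads on all 44 genes summed to 3409 ± 414 CPM in scr control, 3910 ± 437 under shMPZL3 #1 and 4932 ± 493 under shMPZL3 #2 (SD, n = 3 each). The libraries of shMPZL3 #2 lay above all others, and those of shMPZL3 #1 overlapped the controls. Type IV chains summed to 2361 ± 356 CPM in scr control, 2501 ± 279 under shMPZL3 #1 and 3757 ± 417 under shMPZL3 #2, and their share of the summed RPKM was 45.3% ± 0.872 under shMPZL3 #1 and 59.5% ± 2.31 under shMPZL3 #2. The short-chain class was at 52.8 ± 10.1 CPM in scr control, 184 ± 43.96 under shMPZL3 #1 and 110 ± 13.7 under shMPZL3 #2. The beaded-filament class was at 43.98 ± 5.91, 91.4 ± 22.2 and 52.6 ± 8.57 CPM in the same order, and the fibrillar class at 43.3 ± 1.48, 68.9 ± 14.2 and 47.3 ± 5.92 CPM. Shares of a sum move together, so a larger type IV share lowers the others without any change in them.

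**Figure D2:**
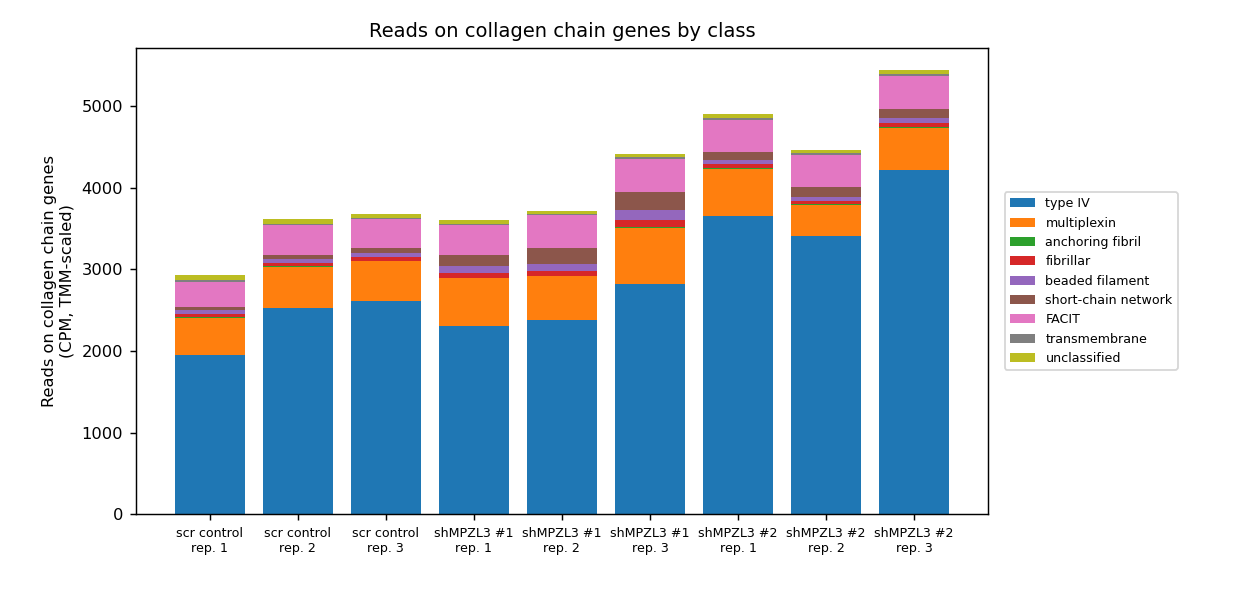
Reads on the 44 collagen chain genes, in CPM, in each of the 9 libraries, stacked by class. The type IV block lies between 1953 and 2610 CPM in scr control, between 2303 and 2820 under shMPZL3 #1 and between 3401 and 4216 under shMPZL3 #2.

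In the comparison of all 6 knockdown libraries with the 3 controls, 7 of the 28 tested members were called higher and 0 lower, where 9.36% of all tested genes were called higher and 6.4% lower. The 7 were COL8A1, COL4A3, COL16A1, COL1A1, COL7A1, COL4A4 and COL6A1. The median log2 fold change of the 28 was 0.59, beside 0.02 over all tested genes. In 6 members all knockdown libraries lay above all controls, which held for 11.8% of all tested genes, and in 1, COL27A1, all lay below, which held for 11% of them. At an unadjusted p under 0.05, edgeR gave 2 lower members, COL5A1 and COL26A1, and DESeq2 with adjustment called 11 higher and 1 lower, COL26A1. Without scr control replicate 1, or without replicate 2, 2 members were called higher in place of 7, and without replicate 3, 4 were.

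With shMPZL3 #1, 12 members were called higher and 2 lower, where 16.8% of all tested genes were called higher and 15.3% lower. With shMPZL3 #2, 11 were called higher, where 9.36% of all genes were, and 0 lower, where 5.8% were. COL21A1 and COL24A1 among the 12 passed the count filter through knockdown libraries and not through the controls. COL15A1 among the 11, with 3, 16 and 7 counts in scr control, also needed its knockdown libraries to pass. For the lower direction under shMPZL3 #2, an unadjusted p under 0.05 in edgeR gave 1 member, COL5A2, and DESeq2 gave 0. The shRNAs share their 3 controls. Of the members, 6 were called higher with both, 6 under shMPZL3 #1 and not under shMPZL3 #2, 4 the other way round, and 1, COL25A1, was called in opposite directions. The shares of all tested genes with such overlaps were not counted. Whether these overlaps are particular to collagens therefore cannot be told. Tested directly against shMPZL3 #1, shMPZL3 #2 had 4 members higher and 6 lower, where 7.56% of all genes were higher and 7.56% lower. The study describes a set of epithelial-mesenchymal transition genes as raised in OVCAR4 and in OVCA433 cells. Which members belong to it was not used here.

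**Figure D3:**
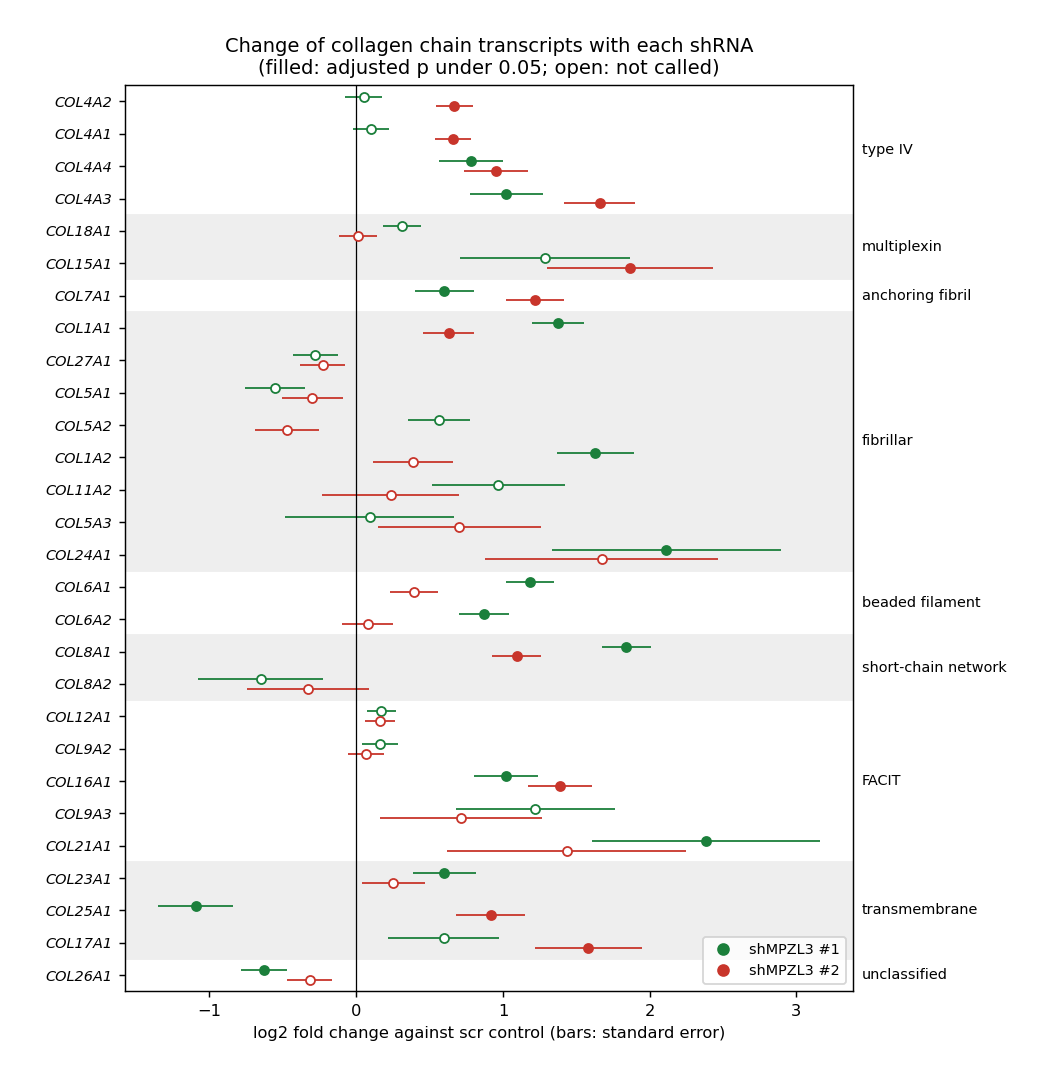
Log2 fold change of the 28 tested members with each shRNA against scr control, with the standard error as a bar, filled where the adjusted p was under 0.05. COL8A1, COL16A1, COL4A3, COL4A4, COL1A1 and COL7A1 are filled to the right of 0 for both shRNAs, and COL25A1 is filled on opposite sides.

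Type IV chains of basement membrane moved in 2 pairs. The major chains COL4A1 and COL4A2, which together make the network found in nearly all basement membranes, rose under shMPZL3 #2 and not under shMPZL3 #1. COL4A1 (chr13:110148963-110307233, minus strand, in hg38 as for all genes) had 17018, 22167 and 23499 normalized counts in scr control, 20305, 22144 and 24731 under shMPZL3 #1, and 31331, 30972 and 36717 under shMPZL3 #2. All 3 libraries of shMPZL3 #2 lay above the 6 others, which overlapped. The log2 fold change was 0.66 ± 0.12 (SE) under shMPZL3 #2 (adjusted p = 0.00144) and 0.10 ± 0.12 under shMPZL3 #1 (adjusted p = 0.571), and the difference between the shRNAs was 0.56 ± 0.12 (adjusted p = 0.00535).

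COL4A2 (chr13:110305812-110513209, plus strand) had 22754, 29045 and 29442 normalized counts in scr control, 26342, 25735 and 32086 under shMPZL3 #1, and 42852, 37736 and 48598 under shMPZL3 #2. As for its neighbour, all 3 libraries of shMPZL3 #2 lay above the 6 others. The log2 fold change was 0.67 ± 0.12 under shMPZL3 #2 (adjusted p = 0.00148) and 0.05 ± 0.12 under shMPZL3 #1 (adjusted p = 0.792). In the grouped comparison neither major chain was called, with log2 fold changes of 0.41 (adjusted p = 0.137) and 0.39 (adjusted p = 0.176). Both were called when the mean of both shRNAs was tested in the fit of 3 groups (adjusted p = 0.0144 and 0.0211), and COL4A1 also with no filter on low counts (0.0415), within ranges over all alternatives of 0.0144 to 0.467 and 0.0211 to 0.505.

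The minor chains COL4A3 and COL4A4, which form the network of the glomerulus and a few other membranes together with COL4A5, rose with both shRNAs. COL4A3 (chr2:227164565-227314792, plus strand) had 53.2, 69.8 and 106 normalized counts in scr control, 114, 176 and 174 under shMPZL3 #1, and 193, 245 and 279 under shMPZL3 #2. The 3 groups did not overlap, with shMPZL3 #2 highest. It changed by a log2 fold of 1.02 ± 0.25 under shMPZL3 #1 (adjusted p = 0.00469) and 1.66 ± 0.24 under shMPZL3 #2 (adjusted p = 0.000195), and the difference of 0.64 ± 0.23 between the shRNAs was not called (adjusted p = 0.0685) but was with DESeq2 (0.046) and with no filter on low counts (0.0184).

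COL4A4 (chr2:227002711-227164453, minus strand) had 281, 484 and 549.9 normalized counts in scr control, 538, 812 and 916 under shMPZL3 #1, and 661, 891 and 991 under shMPZL3 #2. The lowest library of shMPZL3 #1 fell within the control range, and all of shMPZL3 #2 lay above it. The fitted log2 fold change was 0.78 ± 0.22 under shMPZL3 #1 (adjusted p = 0.0119) and 0.95 ± 0.22 under shMPZL3 #2 (adjusted p = 0.00726). The grouped calls of both minor chains were lost without scr control replicate 1 or 2 (adjusted p = 0.0655 and 0.0501 for COL4A3, 0.112 and 0.0569 for COL4A4), and the call of COL4A4 under shMPZL3 #1 without scr control replicate 1 or shMPZL3 #1 replicate 3 (0.0639 and 0.0705). COL4A3 overlaps an antisense gene, AC097662.1, by 120 exonic bases, where reads cannot be assigned by strand in these non-directional libraries. Over all libraries AC097662.1 was given 148 counts and COL4A3 1480. COL4A5 had 0 counts in all controls and in all of shMPZL3 #2, and 0, 10 and 7 under shMPZL3 #1, and COL4A6 had at most 2 counts in any library.

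COL7A1, the anchoring fibril chain that ties epithelial basement membrane to the tissue below, rose with both shRNAs. It (chr3:48564073-48595267, minus strand) had 118, 139 and 111 normalized counts in scr control, 150.1, 219.6 and 192 under shMPZL3 #1, and 253, 239 and 365 under shMPZL3 #2. No group overlapped another. Its log2 fold change was 0.60 ± 0.20 under shMPZL3 #1 (adjusted p = 0.0309) and 1.22 ± 0.20 under shMPZL3 #2 (adjusted p = 0.000487), and shMPZL3 #2 was higher than shMPZL3 #1 by 0.62 ± 0.19 (adjusted p = 0.0372). Its grouped call was lost without any 1 of the control libraries (adjusted p = 0.104, 0.0584 and 0.0859 without replicates 1, 2 and 3), its call under shMPZL3 #1 without scr control replicate 1 or 3 or shMPZL3 #1 replicate 2 or 3 (adjusted p from 0.0786 to 0.114), and its difference between the shRNAs without replicate 1 or 3 of either (0.053 to 0.243).

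Of the multiplexins, COL18A1 was high throughout and was not called, with normalized counts from 9319.6 to 10411 in scr control, from 10882 to 14148 under shMPZL3 #1 and from 7911 to 11751 under shMPZL3 #2. It overlaps SLC19A1 on the opposite strand by 1401 exonic bases, with 97607 counts against 6952 for SLC19A1. COL15A1, the other multiplexin, was low and rose under shMPZL3 #2, with 3.99, 15.1 and 9.62 normalized counts in scr control, 10.1, 37.8 and 25.5 under shMPZL3 #1, and 30.4, 21.3 and 56.4 under shMPZL3 #2. All 3 libraries of shMPZL3 #2 lay above the controls, and shMPZL3 #1 overlapped both. The log2 fold change of 1.86 ± 0.57 (adjusted p = 0.0347) was not called without scr control replicate 1 or 3 or without shMPZL3 #2 replicate 1 or 3 (adjusted p from 0.0533 to 0.199). With 3, 16 and 7 counts in scr control, COL15A1 passed the count filter through its knockdown libraries.

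COL8A1, a short-chain collagen known from the membrane beneath corneal and vascular endothelium, had the largest log2 fold change of the members called in the grouped comparison, 1.51 ± 0.25 (adjusted p = 0.00216). It (chr3:99638475-99799226, plus strand) had 838, 1079 and 1226 normalized counts in scr control, 2749, 3994 and 4506 under shMPZL3 #1, and 1963, 2509.6 and 2233 under shMPZL3 #2. The 3 groups did not overlap, with shMPZL3 #1 highest. It was 3.58-fold higher under shMPZL3 #1 (log2 1.84 ± 0.17, adjusted p = 2.68e-06) and 2.13-fold higher under shMPZL3 #2 (log2 1.09 ± 0.16, adjusted p = 0.000243), and the log2 difference of shMPZL3 #2 from shMPZL3 #1 was -0.75 ± 0.16 (adjusted p = 0.00493). Its partner COL8A2 was low, at 17.97 to 52.2 normalized counts over scr control and shMPZL3 #1 and 15.2 to 34.5 under shMPZL3 #2, and was not called in any comparison.

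The type VI chains COL6A1 and COL6A2, which lie next to each other on chromosome 21 and assemble into beaded microfibrils with a further chain such as COL6A3, rose under shMPZL3 #1. COL6A1 (chr21:45981737-46005050) had 415, 527 and 566 normalized counts in scr control, 961, 986 and 1484 under shMPZL3 #1, and 621, 607 and 751 under shMPZL3 #2. The groups did not overlap, with shMPZL3 #2 between the others. The log2 fold change was 1.18 ± 0.16 under shMPZL3 #1 (adjusted p = 6.39e-05) and 0.39 ± 0.16 under shMPZL3 #2 (adjusted p = 0.119). The value under shMPZL3 #2 was called with no filter on low counts (adjusted p = 0.0327), in a fit of the 6 libraries of that comparison alone (0.0467) and without shMPZL3 #1 replicate 3 (0.0497), and adjusted p reached 0.4095 under other alternatives. Its grouped call (log2 0.84 ± 0.25, adjusted p = 0.0373) was lost without any 1 of the controls (adjusted p = 0.187, 0.107 and 0.0823 without replicates 1, 2 and 3) or without shMPZL3 #1 replicate 1 (0.0629) or 2 (0.0554).

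COL6A2 (chr21:46098097-46132849) had 349.7, 412 and 432 normalized counts in scr control, 644, 626 and 915 under shMPZL3 #1, and 353, 375 and 528 under shMPZL3 #2. The libraries of shMPZL3 #1 lay above all others, and those of shMPZL3 #2 overlapped the controls. It changed by a log2 fold of 0.87 ± 0.17 under shMPZL3 #1 (adjusted p = 0.00106) and 0.08 ± 0.17 under shMPZL3 #2 (adjusted p = 0.807). Between the shRNAs both chains differed by a log2 value of -0.79, with adjusted p = 0.00319 for COL6A1 and 0.00469 for COL6A2. COL6A3, the partner that completes the usual type VI molecule, had 0 counts in all controls and all of shMPZL3 #2, and 4, 0 and 2 under shMPZL3 #1.

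Fibrillar chains were low in these cells, and COL1A1 and COL1A2, which together make type I collagen, both rose under shMPZL3 #1. COL1A1 (chr17:50183289-50201632, minus strand) had 297, 261 and 238 normalized counts in scr control, 619, 572 and 874 under shMPZL3 #1, and 411, 331 and 486 under shMPZL3 #2. The groups did not overlap, with shMPZL3 #2 between the others. The fitted log2 fold change was 1.38 ± 0.18 under shMPZL3 #1 (adjusted p = 3.26e-05) and 0.63 ± 0.18 under shMPZL3 #2 (adjusted p = 0.0229). The difference between the shRNAs was -0.75 ± 0.17 (adjusted p = 0.00678). The grouped call (log2 1.05 ± 0.25, adjusted p = 0.015) was lost without any 1 of the controls (adjusted p from 0.0625 to 0.0704), and the call under shMPZL3 #2 without scr control replicate 2 or 3 or shMPZL3 #2 replicate 1 or 3 (0.0637 to 0.124).

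COL1A2 (chr7:94394561-94431232, plus strand) had 49.2, 55.6 and 53.6 normalized counts in scr control, 139, 134 and 218 under shMPZL3 #1, and 65.8, 48.7 and 91.7 under shMPZL3 #2. The libraries of shMPZL3 #1 stood above all others, and those of shMPZL3 #2 overlapped the controls. Its log2 fold change was 1.63 ± 0.26 under shMPZL3 #1 (adjusted p = 0.000219) and 0.39 ± 0.27 under shMPZL3 #2 (adjusted p = 0.368). Between the shRNAs it differed by -1.24 ± 0.25 (adjusted p = 0.0032).

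COL5A2, a chain of the type V collagen that regulates fibril width, was not called against control with either shRNA but differed between them. It (chr2:189031896-189225312, minus strand) had 85.1, 109 and 128 normalized counts in scr control, 124, 169 and 183 under shMPZL3 #1, and 68.8, 73.0 and 89.4 under shMPZL3 #2. Each shRNA overlapped the controls and the shRNAs did not overlap each other. The difference of shMPZL3 #2 from shMPZL3 #1 was -1.04 ± 0.21 on the log2 scale (adjusted p = 0.0038), from values of 0.56 ± 0.21 under shMPZL3 #1 (adjusted p = 0.0527) and -0.47 ± 0.22 under shMPZL3 #2 (adjusted p = 0.165) against control. Under shMPZL3 #1 it was called in 7 of 16 alternatives, DESeq2 (adjusted p = 0.0487) and upper-quartile scaling (0.0434) among them, and adjusted p ranged from 0.018 to 0.211 over the 16. The call also appeared without scr control replicate 3 (0.0466), shMPZL3 #1 replicate 1 (0.018) or shMPZL3 #2 replicate 3 (0.0494).

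The remaining fibrillar chains that were tested were not called in the grouped comparison (edgeR, adjusted p). COL5A1 was at 0.875 ± 0.231 RPKM in scr control, 0.593 ± 0.105 under shMPZL3 #1 and 0.708 ± 0.103 under shMPZL3 #2, with a log2 value of -0.55 for shMPZL3 #1 (adjusted p = 0.0508). COL27A1 was at 0.765 ± 0.0522, 0.631 ± 0.0621 and 0.654 ± 0.0504 RPKM in the same order, with a grouped log2 value of -0.25 ± 0.13 (adjusted p = 0.22). COL11A2 and COL5A3 were at most 0.313 RPKM on average in any group and were not called. COL24A1, at 0 to 30.8 normalized counts in any library, was called higher under shMPZL3 #1 (log2 2.11 ± 0.78, adjusted p = 0.0474), and this call was lost without scr control replicate 1 or 2, shMPZL3 #1 replicate 2 or 3 or shMPZL3 #2 replicate 1 or 3 (adjusted p from 0.0542 to 0.173). With 4, 0 and 7 counts in scr control, all under the cutoff of the count filter, it was tested only because knockdown libraries passed. DESeq2 called COL24A1 higher in the grouped comparison too (adjusted p = 0.0445), where edgeR gave 0.0998 and its alternatives 0.0578 to 0.292.

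Of the FACIT class, COL16A1, a minor fibril-associated chain, rose with both shRNAs. It (chr1:31652247-31704319, minus strand) had 112, 228 and 180.1 normalized counts in scr control, 294, 307 and 464 under shMPZL3 #1, and 447, 431 and 496 under shMPZL3 #2. All 6 knockdown libraries lay above the controls, and the shRNAs overlapped each other. The log2 fold change was 1.02 ± 0.22 under shMPZL3 #1 (adjusted p = 0.00193), 1.39 ± 0.22 under shMPZL3 #2 (adjusted p = 0.000341) and 1.22 ± 0.23 in the grouped comparison (adjusted p = 0.00467). The abundant FACIT chains COL12A1 and COL9A2 were not called, with grouped log2 values of 0.17 ± 0.10 (adjusted p = 0.252) and 0.11 ± 0.12 (adjusted p = 0.552). COL9A3, the low partner of COL9A2, had 8.25 to 39.7 normalized counts and was not called. It overlaps TCFL5 on the opposite strand by 45 exonic bases, with 164 counts against 5844 for TCFL5. COL21A1, with 1.33 to 26.5 normalized counts, was called higher under shMPZL3 #1 (log2 2.38 ± 0.78, adjusted p = 0.0264), which did not hold without scr control replicate 1 or 3 or shMPZL3 #1 replicate 2 or 3 (0.0664 to 0.114). Its controls had 1, 6 and 2 counts, under the cutoff of the count filter. It was tested only because knockdown libraries passed that cutoff, which favours a higher call.

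Among the transmembrane collagens, COL25A1, known from neurons and from amyloid plaques, moved in opposite directions. It (chr4:108808725-109302752, minus strand) had 78.4, 91.5 and 66.0 normalized counts in scr control, 48.5, 34.8 and 27.4 under shMPZL3 #1, and 155, 171 and 123 under shMPZL3 #2. The 3 groups did not overlap, with the controls between the shRNAs. It changed by a log2 fold of -1.09 ± 0.26 under shMPZL3 #1 (adjusted p = 0.00379) and 0.92 ± 0.23 under shMPZL3 #2 (adjusted p = 0.0139), a difference of 2.01 ± 0.25 (adjusted p = 5.7e-05). The call under shMPZL3 #2 was lost without scr control replicate 1 (0.0516) or 3 (0.0665), and those under shMPZL3 #1 and between the shRNAs were kept without any 1 library.

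COL17A1, the hemidesmosome collagen that anchors epithelial cells, rose under shMPZL3 #2. It (chr10:104031286-104085957, minus strand) had 14.6, 31.1 and 46.7 normalized counts in scr control, 37.5, 40.7 and 61.5 under shMPZL3 #1, and 58.7, 101 and 116 under shMPZL3 #2. The libraries of shMPZL3 #2 lay above the controls, and shMPZL3 #1 overlapped both. The fitted log2 fold change was 1.58 ± 0.36 under shMPZL3 #2 (adjusted p = 0.00718) and 0.60 ± 0.38 under shMPZL3 #1 (adjusted p = 0.248), and the difference between them was not called (0.99 ± 0.34, adjusted p = 0.0614) but was with DESeq2 (0.0398), with no filter on low counts (0.0119) and without scr control replicate 1 (0.0368) or shMPZL3 #2 replicate 1 (0.0357).

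COL23A1, another transmembrane collagen, had 215, 141 and 183 normalized counts in scr control, 266, 198 and 349.9 under shMPZL3 #1, and 250.04, 218 and 174 under shMPZL3 #2. All groups overlapped. It was called higher under shMPZL3 #1 (log2 0.60 ± 0.21, adjusted p = 0.0405), which did not hold without scr control replicate 2 or 3 or shMPZL3 #1 replicate 1 or 3 (0.0595 to 0.236). COL26A1, which fits none of the classes, fell under shMPZL3 #1. It (chr7:101362820-101559024, plus strand) had 1392, 1117 and 1134 normalized counts in scr control, 958, 672 and 727 under shMPZL3 #1, and 1118, 743 and 1059 under shMPZL3 #2. The libraries of shMPZL3 #1 lay below the controls. Its log2 fold change was -0.63 ± 0.16 under shMPZL3 #1 (adjusted p = 0.00586) and -0.32 ± 0.16 under shMPZL3 #2 (adjusted p = 0.186).

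The 16 members that were not tested had at most 22 counts in any library. They were the type IV chains COL4A5 and COL4A6, the type VI chains COL6A3, COL6A5 and COL6A6, the fibrillar chains COL2A1, COL3A1 and COL11A1, the FACIT chains COL9A1, COL14A1, COL19A1, COL20A1 and COL22A1, and COL10A1, COL13A1 and COL28A1. Some had reads mainly in knockdown libraries. COL3A1, the partner of type I collagen in soft stroma, had 0 counts in the 3 controls, 12, 10 and 6 under shMPZL3 #1 and 4, 1 and 0 under shMPZL3 #2. Ratios were computed for untested members with at most 3 counts over the controls and more than 3 over a knockdown group. Their direction was therefore set by the choice and is no evidence of a rise. Scaled by library size, COL3A1 under shMPZL3 #1 stood at 7.51 times a floor of 3 counts over the controls, the upper limit that 0 counts allow. COL22A1 had 0 counts in the controls and under shMPZL3 #2 and 3, 12 and 14 under shMPZL3 #1, which stood at 7.78 times the same floor. COL28A1 had 1 count over the controls and 38 under shMPZL3 #1, a ratio of 30.6 with a 95% counting interval of 5.17 to 1239. COL11A1 went the other way, with 3, 6 and 1 counts in scr control and 0 in all of shMPZL3 #1. The ratios to the floor take the knockdown counts as exact, and the interval covers counting error only. Replicates of a group differed by more than counting error, so neither is a bound on the change.

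The balance between chains that share a molecule was then compared, as the ratio of their reads per exonic base, for 6 pairs with an exact two-sided permutation test of the 6 knockdown against the 3 control libraries, which cannot give a p below 0.0119. COL4A1 stood at 0.979, 0.999 and 1.04 times COL4A2 in scr control, 1.01, 1.13 and 1.01 times under shMPZL3 #1, and 0.957, 1.07 and 0.989 times under shMPZL3 #2. The ratio overlapped in all groups (exact permutation p = 0.655, adjusted over the 6 pairs 0.786), while the level of both chains rose under shMPZL3 #2. COL4A3 was at 0.194 ± 0.0299 times COL4A4 in scr control, 0.227 ± 0.0156 under shMPZL3 #1 and 0.313 ± 0.00948 under shMPZL3 #2 (SD, n = 3 each; exact permutation p = 0.0357, adjusted 0.0714).

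COL6A1 stood at 1.20, 1.29 and 1.32 times COL6A2 in scr control, 1.503, 1.59 and 1.64 times under shMPZL3 #1, and 1.77, 1.63 and 1.43 times under shMPZL3 #2. All 6 knockdown libraries lay above the controls (exact permutation p = 0.0119, the smallest possible, adjusted 0.0357), so COL6A1 gained on COL6A2 with both shRNAs although the level of COL6A2 was called under shMPZL3 #1 and not under shMPZL3 #2. COL8A1 stood at 16.1 ± 5.21 times COL8A2 in scr control, 87.7 ± 32.1 under shMPZL3 #1 and 44.9 ± 16.7 under shMPZL3 #2 (SD, n = 3 each; exact permutation p = 0.0119, adjusted 0.0357), where COL8A2 had 69 to 92 counts per group. COL1A1 over COL1A2 was 5.74 ± 0.970, 4.82 ± 0.256 and 6.95 ± 0.856 in the same order (exact permutation p = 0.917), and COL5A1 over COL5A2 was 1.32 ± 0.609, 0.576 ± 0.0670 and 1.43 ± 0.318 (exact permutation p = 0.369). For both pairs the test pools shRNAs whose mean ratios lay on opposite sides of control. COL1A1 over COL1A2 was 4.54 to 5.05 under shMPZL3 #1 and 6.03 to 7.72 under shMPZL3 #2. COL5A1 over COL5A2 was 0.502 to 0.632 under shMPZL3 #1 and 0.930 to 2.02 in scr control. The ratios were not tested for each shRNA.

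**Figure D4:**
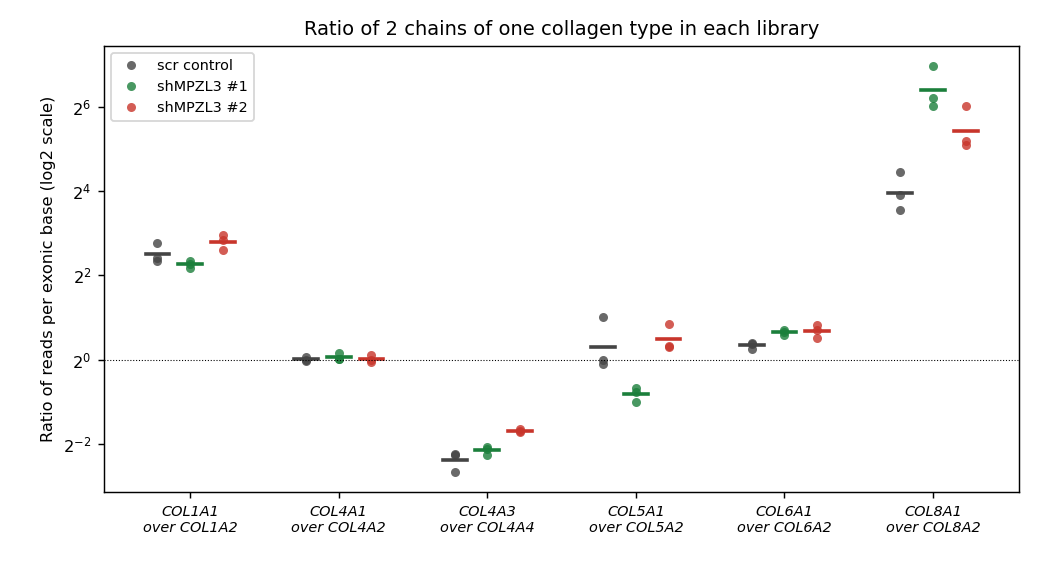
Ratio of reads per exonic base between chains of a collagen type, for 6 pairs, with a point per library and the mean of the log2 ratios as a bar, on a log2 axis. COL4A1 over COL4A2 stays between 0.957 and 1.13 in the 9 libraries, and COL6A1 over COL6A2 and COL8A1 over COL8A2 are higher in all 6 knockdown libraries than in the controls.

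Genes that make, export, process and bind collagen were described from lists of known roles. Of the hydroxylases and glycosyltransferases that modify the chains in the endoplasmic reticulum, 4 of 15 tested genes rose in the grouped comparison, where 9.36% of all tested genes did. Their median log2 fold change was 0.19, beside 0.02 over all tested genes. With shMPZL3 #1, 5 of the 15 rose, where 16.8% of all tested genes did. COLGALT2, which adds galactose to hydroxylysine, rose by 1.45 ± 0.28 (adjusted p = 0.00481), and P4HA2, a catalytic subunit of the prolyl 4-hydroxylase that stabilizes the helix, by 0.66 ± 0.10 (adjusted p = 0.00148). The lysyl hydroxylases PLOD1 and PLOD3 rose by 0.57 ± 0.10 and 0.40 ± 0.12 (adjusted p = 0.00381 and 0.0431). PLOD3 was called under shMPZL3 #2 (0.53, adjusted p = 0.00293) and not under shMPZL3 #1 (0.25, adjusted p = 0.0845). P4HA1 and P4HB, the other main subunits of the prolyl hydroxylase, were not called. The prolyl 3-hydroxylases P3H1 and P3H2 rose under shMPZL3 #1, by 0.68 and 0.59 (adjusted p = 0.000526 and 0.000408), and were at 0.13 and -0.03 under shMPZL3 #2, where neither was called.

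Of the chaperone and export genes, 2 of 8 tested rose, at a median of 0.31. They were SEC24D, a coat protein of the vesicles that carry procollagen (0.32 ± 0.10, adjusted p = 0.0474), and CREB3L2, a transcription factor that drives such vesicle genes (0.38 ± 0.10, adjusted p = 0.0256). Neither was called under shMPZL3 #2. SERPINH1, the collagen chaperone HSP47, had a grouped value of 0.30 ± 0.10 (adjusted p = 0.0528) and was called higher with each shRNA in the fit of 3 groups (adjusted p = 0.0453 and 0.0407). MIA3, a receptor that loads procollagen into vesicles, rose under shMPZL3 #1 (0.45 ± 0.13, adjusted p = 0.0113). Under shMPZL3 #2 the coat protein gene SEC23A fell by 0.39 ± 0.12 (adjusted p = 0.0343), and CREB3L1, a relative of CREB3L2, rose by 2.50 ± 0.67 (adjusted p = 0.0184). Of 14 processing and cross-linking genes, 3 rose and 1 fell in the grouped comparison, 5 rose and 4 fell under shMPZL3 #1, and 5 rose and 1 fell under shMPZL3 #2. Of all tested genes, 9.36% rose and 6.4% fell in the grouped comparison. The shares were 16.8% and 15.3% under shMPZL3 #1, and 9.36% and 5.8% under shMPZL3 #2. A fall of 1 in 14 is near the shares that fell in the grouped comparison and under shMPZL3 #2. The grouped risers were BMP1, which cuts the C-propeptide of procollagens (0.71 ± 0.12, adjusted p = 0.00199), ADAMTS14, which cuts N-propeptides (0.91 ± 0.17, adjusted p = 0.00443), and the cross-linking enzyme LOX (0.82 ± 0.24, adjusted p = 0.0343), while PCOLCE2, an enhancer of the BMP1 cut, fell by 0.81 ± 0.16 (adjusted p = 0.00695). LOX and LOXL2 followed shMPZL3 #2, with log2 values of 1.15 and 1.29 there (adjusted p = 6.83e-05 and 9e-05) and 0.38 and 0.21 under shMPZL3 #1, where neither was called. Their relatives LOXL1 and LOXL3 fell under shMPZL3 #1, by 0.44 ± 0.14 and 0.89 ± 0.24 (adjusted p = 0.0215 and 0.0101), and were at -0.02 and -0.14 under shMPZL3 #2, where neither was called.

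The N-propeptide proteases went apart under shMPZL3 #1, where ADAMTS2 rose by 1.98 ± 0.65 (adjusted p = 0.0276) and ADAMTS3 fell by 1.30 ± 0.46 (adjusted p = 0.0416). Of the relatives of BMP1, TLL2 rose under shMPZL3 #1 (1.09 ± 0.16, adjusted p = 9.6e-05) and TLL1 under shMPZL3 #2 (0.89 ± 0.18, adjusted p = 0.00311). PXDN, the peroxidase that cross-links type IV collagen, rose under shMPZL3 #1 (0.54 ± 0.12, adjusted p = 0.00239).

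Of 8 collagen receptor genes tested, 3 rose, at a median of 0.69. They were ITGA2, the integrin subunit that binds type I and IV collagen (1.43 ± 0.26, adjusted p = 0.00345), the receptor kinase DDR1 (0.76 ± 0.13, adjusted p = 0.00259), and GP6, a platelet collagen receptor (0.85 ± 0.23, adjusted p = 0.0245). The integrin subunit ITGA1 rose under shMPZL3 #1 (0.42 ± 0.15, adjusted p = 0.0404) and the collagen receptor OSCAR under shMPZL3 #2 (1.67 ± 0.44, adjusted p = 0.0174). In all, 3 receptor genes were called higher under shMPZL3 #2, OSCAR among them, so not every grouped riser was called there. Of 10 genes for proteins that bind fibrils or matrix, 5 were tested and 3 rose, the proteoglycan LUM (1.15 ± 0.29, adjusted p = 0.02), THBS1 (1.37 ± 0.20, adjusted p = 0.00105) and TNC (1.06 ± 0.13, adjusted p = 0.000453), while DCN had no read in any library. Over these lists, with 15, 8, 14, 8 and 5 tested genes in the order given, 15 genes rose and 1 fell in the grouped comparison. Of all tested genes 9.36% rose and 6.4% fell. With any 1 control library left out, 9 genes of the lists rose.

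**Figure D5:**
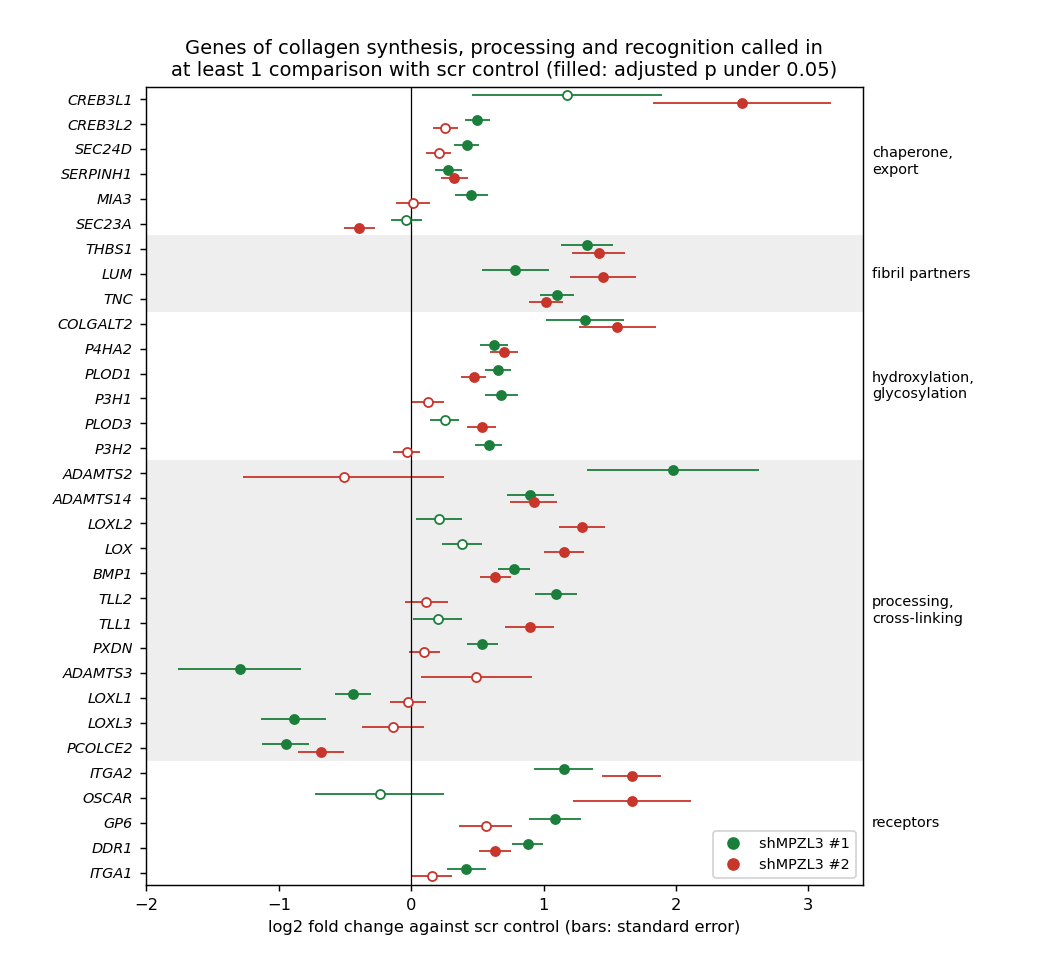
Log2 fold change with each shRNA against scr control, with the standard error as a bar, of the genes of collagen synthesis, processing and recognition that were called in at least 1 comparison with control, filled where the adjusted p was under 0.05. THBS1, ITGA2, COLGALT2 and TNC are filled and lie beyond 1 for both shRNAs, CREB3L1 lies beyond 1 for both but is open for shMPZL3 #1, and PCOLCE2 is the gene that fell with both.

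Markers of other cell types were read beside the collagens. The 11 markers of ovarian carcinoma epithelium summed to 974 to 1265 RPKM over the 9 libraries, with WT1 the only marker not tested. Of the 10 tested, 4 were called higher and 1 lower under shMPZL3 #1, where 16.8% and 15.3% of all tested genes were. Under shMPZL3 #2, 1 was called higher and 0 lower, where 9.36% and 5.8% were. The 8 fibroblast markers summed to 0.199 to 0.394 RPKM in scr control, 0.311 to 0.491 under shMPZL3 #1 and 0.268 to 0.380 under shMPZL3 #2, with DCN, TCF21 and DPT at 0 in all libraries. The 5 smooth muscle and pericyte markers summed to 1.49 to 2.59 RPKM in scr control, 5.64 to 7.35 under shMPZL3 #1 and 2.45 to 3.08 under shMPZL3 #2, and 3 of the 5 were tested and called higher under shMPZL3 #1, ACTG2, CNN1 and MYH11, of which CNN1 was also called higher under shMPZL3 #2. They moved with the shMPZL3 #1 rises of COL1A1, COL1A2, COL6A1, COL6A2 and COL8A1, and their part in these results was not tested. The 6 endothelial markers summed to 1.22 to 1.60 RPKM in scr control, 1.13 to 1.32 under shMPZL3 #1 and 2.13 to 2.50 under shMPZL3 #2, where CDH5 was called higher, which moved with the shMPZL3 #2 rises of COL4A1 and COL4A2 and was not tested as to its part. The 6 leukocyte markers summed to 0.222 to 0.332 RPKM in scr control, 0.492 to 0.905 under shMPZL3 #1 and 0.619 to 0.817 under shMPZL3 #2, with MS4A1 at 0 throughout and CD14 called higher with both shRNAs, and their part was not tested.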

How the data were processed

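Libraries were poly-A selected and non-directional, and were sequenced on an Illumina NovaSeq instrument. The deposited values are raw read counts for each gene and library, which the authors obtained after alignment with HISAT2 and neither normalized nor pooled. Per the submitters' processing notes, HISAT2 was version 2.0.5, featureCounts was version 1.5.0-p3 and the build was hg38. All 58735 genes matched GENCODE release 29. Libraries were grouped by their labels. Other libraries of the study were not analysed here.

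Counts were analysed with edgeR 4.0.16 in R 4.3.3 and with Python 3.11.15. Genes passing filterByExpr (16928) were scaled by TMM (factors 0.983 to 1.03) and tested with the quasi-likelihood test, in a design of knockdown against control and in a design of 3 groups, with Benjamini-Hochberg adjustment over all genes tested. Standard errors are the log2 fold change divided by the root of the F statistic. RPKM used the exonic length in the table. Counts per library limit precision most for members under 1 RPKM. Replicates of a group differed by more than counting noise (chi-square per gene 3.16 to 23.7). The fit was checked on simulated counts.

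Members and lists were chosen with earlier results of these data known. Values per library are given for members called in any comparison, group values or ranges for other tested members and for called members with an average log2 CPM under 0, and highest counts for the rest. Of the genes in the lists of partners, those called against control in any comparison are named, at most 10 per list by size of the grouped change. LOXL1 and ADAMTS3, outside these 10, and P4HA1, P4HB and DCN, not called, were added after their values were seen. DESeq2 1.42.0, other normalizations and filters, a replicate block and leaving out each library were the alternatives.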

Additional observations from a re-analysis of the deposited data

Results flagged for a closer look

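In 10 members the effects of the shRNAs differed by edgeR's direct test of shMPZL3 #2 against shMPZL3 #1 (adjusted p under 0.05), given here as the log2 effect of shMPZL3 #2 minus that of shMPZL3 #1. For COL25A1 it was 2.01, for COL4A2 0.62, for COL7A1 0.62 and for COL4A1 0.56, all higher with shMPZL3 #2 in 3 of 3 libraries. For COL1A2 it was -1.24, for COL5A2 -1.04, for COL6A2 -0.79, for COL6A1 -0.79, for COL1A1 -0.75 and for COL8A1 -0.75, all lower with shMPZL3 #2 in 3 of 3 libraries. The call of COL7A1 was lost without replicate 1 or 3 of either shRNA (adjusted p from 0.053 to 0.243), and the other 9 were kept without any 1 library. MPZL3 was lower with shMPZL3 #1 (128 ± 12.9 normalized counts) than with shMPZL3 #2 (312 ± 59.5; SD, n = 3 each), so the shRNA sequence and the depth of the knockdown cannot be told apart here.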

How the results depend on the processing

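Of 42 calls on members, 28 were kept under every alternative that gave a value, and 14 were lost without at least 1 library. In the grouped comparison 7 members were called higher and 0 lower. This became 11 and 1 with DESeq2, 13 and 1 with no filter on low counts, and 13 and 1 with the mean of both shRNAs in the 3-group fit; leaving out 1 library gave 2 to 9 higher and 0 to 1 lower. With shMPZL3 #1 leaving out 1 library gave 8 to 16 higher and 2 to 3 lower, with shMPZL3 #2 8 to 12 higher and 0 lower, and between the shRNAs 3 to 5 higher and 6 to 8 lower. For partner genes it gave 9 to 16 higher and 0 to 1 lower. The cause of these moves was not tested. Of 34 values that were not called, in the members called in any comparison, 16 were called under at least 1 alternative. With the mean of both shRNAs in the 3-group fit these were COL1A2, COL4A1, COL4A2, COL6A2, COL15A1, COL17A1 and COL26A1 in the grouped comparison (adjusted p from 0.00507 to 0.0324).

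Same-numbered libraries of different groups correlated at -0.0014 to 0.218, with 3 of 9 pairs over 0.1, and 8 of 9 libraries matched their own number best, a hint from the data and not the design. A replicate block gave 7 higher and 1 lower in the grouped comparison, 12 higher and 1 lower with shMPZL3 #2, and 7 higher and 7 lower between the shRNAs. With the block, calls appeared for COL26A1 in the grouped comparison (adjusted p = 0.0333), under shMPZL3 #2 (0.0238) and between the shRNAs (0.0349), for COL5A2 under shMPZL3 #1 (0.0207), for COL6A1 under shMPZL3 #2 (0.015), and between the shRNAs for COL4A3 (0.008075) and COL17A1 (0.0116).

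Signs changed for these uncalled values. COL25A1 in the grouped comparison was -0.089 with the mean of both shRNAs, and -0.024 to 0.43 without 1 library. Without 1 library COL5A2 there ranged from -0.032 to 0.27 (-0.012 without scr control replicate 1). With shMPZL3 #1, COL4A2 ranged from -0.066 to 0.12 and COL4A1 from -0.034 to 0.19. With shMPZL3 #2, COL6A2 ranged from -0.11 to 0.17, and between the shRNAs COL4A4 from -0.035 to 0.33. Without 1 library the log2 ratio of COL1A1 over COL1A2 ranged from -0.068 to 0.15, that of COL4A1 over COL4A2 from -0.0004 to 0.053, that of COL4A3 over COL4A4 from 0.34 to 0.54, that of COL5A1 over COL5A2 from -0.67 to -0.11, that of COL6A1 over COL6A2 from 0.28 to 0.36 and that of COL8A1 over COL8A2 from 1.74 to 2.19.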
